A study of Mus musculus with 3 samples.

Results

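The messenger RNA population of wild-type mouse round spermatids is described here by abundance, from 1 library of the 3 in the series. All 17946 genes with a value in that library were ranked, and none was selected or removed. The study sorted round spermatids from control mice and from mice carrying the MiwiΔIns or the MiwiR371W allele, 1 library per genotype, to examine mRNAs and transposons; Miwi (Piwil1) encodes a germline PIWI protein. The wild-type cells came from testes of male C57BL/6 mice at 28 days of age and were separated by fluorescence-activated cell sorting after staining DNA with Hoechst. The number of animals behind the library is not given in the sources used here. Because wild type was represented by 1 library, no value below has a replicate check, no test was run, and the genotypes are not compared.

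Round spermatids are the haploid cells that leave meiosis and begin to build a sperm. They assemble the acrosome, the secretory cap used in fertilisation, and the flagellum, while the nucleus is prepared for replacing histones with transition proteins and then protamines. Transcription stops as the nucleus condenses, so many messages are made in round spermatids, bound by RNA-binding proteins and held untranslated until later steps.

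Levels are given in the deposited value, a signal normalised to transcript length and library size, so that genes can be compared with each other per length. The values ran from 0.01 to 4085 and summed to 647897. The median gene stood at 3.73, with quartiles of 0.66 and 21.8, and the mean was 36.1. A total of 3304 genes lay above that mean. Low values fell on steps, 1 fragment being worth 0.0735 at an effective transcript length of 1 kb, so that a value of 1 at this length rested on about 13.6 fragments. Counting error was estimated from this step and the median length of each gene's annotated transcripts, and covers counting only.

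The library carried high levels of spermatid markers. No marker list separated round from later spermatids, so these markers do not give the stage. All 7 spermatid markers were among the 13 highest genes. Transition protein 2 (Tnp2) was at 4085, protamine 1 (Prm1) at 4043 and protamine 2 (Prm2) at 3503. These are the small basic proteins that package sperm DNA. Smcp, a cysteine-rich protein of the sperm mitochondrial capsule, was at 2722 and transition protein 1 (Tnp1) at 2626. Odf2, an outer dense fibre protein, was at 2598. Ldhc, the germ cell lactate dehydrogenase, was the lowest of the 7 at 2094. The 7 together held 3.34% of the summed value.

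Markers of other testis cells were far lower, though many genes of meiosis were well above the median gene. The 24 measured spermatocyte markers had a median of 21.5, against 3.73 over all genes, and held 0.208% of the total. Of these, 15 were at 10 or more and 5 at 100 or more. Among them Syce1, of the synaptonemal complex that joins paired chromosomes, was at 355 and the meiotic cohesin subunit Stag3 at 215, while the recombination genes Dmc1 and Prdm9 were at 0.83 and 0.55. The 15 spermatogonia markers had a median of 0.9 and were led by Uchl1 at 6.97 and Id4 at 5.86.

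Most somatic markers were low too. The 16 Sertoli cell markers had a median of 1.26, with Clu (clusterin) highest at 19.6 and Defb19 next at 9.44. The 7 Leydig cell markers had a median of 0.24, and the steroidogenic genes Star, Cyp17a1 and Cyp11a1 were at 0.24, 0.30 and 0.15. Scarb1, a lipoprotein receptor, was the exception at 40.4, followed by Insl3 at 3.11. The 10 macrophage markers had a median of 0.255, with Apoe at 4.92 and C1qb at 2.73, and the 1 erythroid marker measured, Alas2, was at 0.23. Of 16 peritubular and endothelial markers, Actg2, a smooth muscle actin, stood at 257, but the next, Vwf, was at 2.95 and Acta2 at 1.01. In a bulk library, fewer cells of a type and less RNA per cell cannot be told apart, and the part of other cells in any level below was not tested.

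The summed value was spread over many genes. The 10 highest genes held 4.80% of the total, the 100 highest 20.1% and the 1000 highest 59.5%. It took 663 genes to reach 50% of the total, 4037 to reach 90% and 9814 to reach 99%. Odf2 at 2598 was the last gene inside the top 10 and Csnk2b at 2222 the first outside it. The edge of the top 100 lay between Gkap1 at 728.4 and Rnaseh2a at 727.4, and that of the top 1000 between Brap at 153.5 and Capzb at 153.4. The neighbours on either side of the last pair of edges were almost equal.

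**Figure D1:**
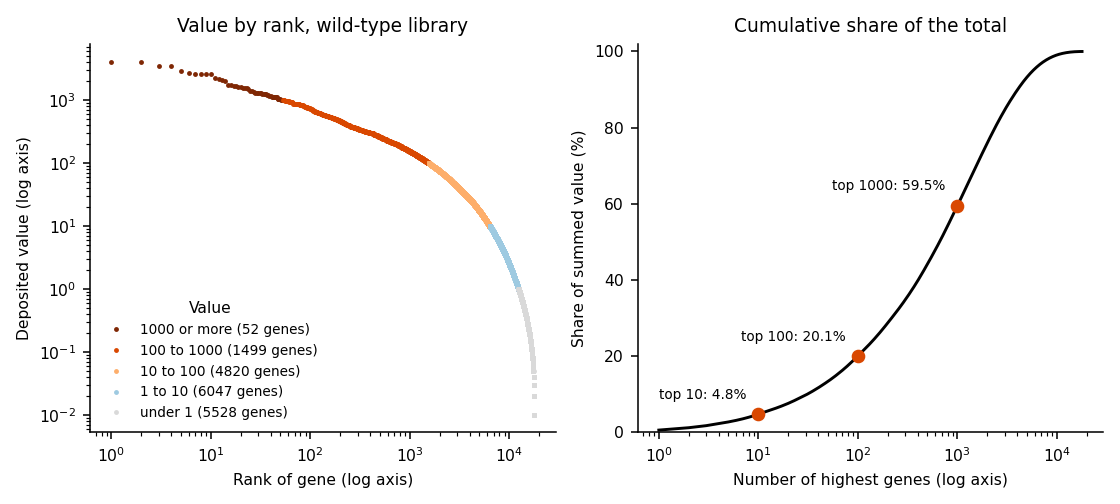
Deposited value against rank and cumulative share of the summed value against rank, for 17946 genes of the wild-type round spermatid library (log axes where labelled). The value falls gradually with rank, and the 10, 100 and 1000 highest genes hold 4.80%, 20.1% and 59.5% of the total.

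The order within the top 10 was only partly resolved by depth. Tnp2 and Prm1 differed by 42.2, less than the counting SD of 63.8 for that difference. Prm2 exceeded the polyubiquitin gene Ubb, at 3447, by 56.0, which was 1.64 counting SDs. Larger gaps separated Prm1 from Prm2, by 9.19 SDs, and Ubb from Pabpc1, by 21 SDs. These SDs rest on annotated transcript lengths, which may not be those of the messages present. Pabpc1, the cytoplasmic poly(A)-binding protein, was at 2849. Ybx2, the germ cell Y-box protein that binds stored mRNAs, was at 2623, next to Tnp1 at 2626 and mt-Atp8 at 2613. Tnp1 and mt-Atp8 are too short for a fragment estimate, so their order against Ybx2 and Odf2 is unresolved.

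Genes at 1000 or more numbered 52, or 0.29% of all genes, and held 13.7% of the total. The limits of the ranges depend on the unit: rescaled to the sum that TPM would have, by a factor of 1.543, 112 genes reached 1000. All 52 were protein-coding. Their median value was 1370, resting on about 8990 fragments per gene, with a counting error of 1.05%. Genes of the flagellum and cytoskeleton were the largest named group, with 10 genes and 2.65% of the total. The 4 protamine and transition protein genes held 2.2%, and 6 genes of mRNA storage, the piRNA pathway and translation held 1.67%. The 5 mitochondrially encoded mRNAs held 1.26% and the 5 acrosome genes 0.987%. Of the 52, 17 were in no function list.

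**Figure D2:**
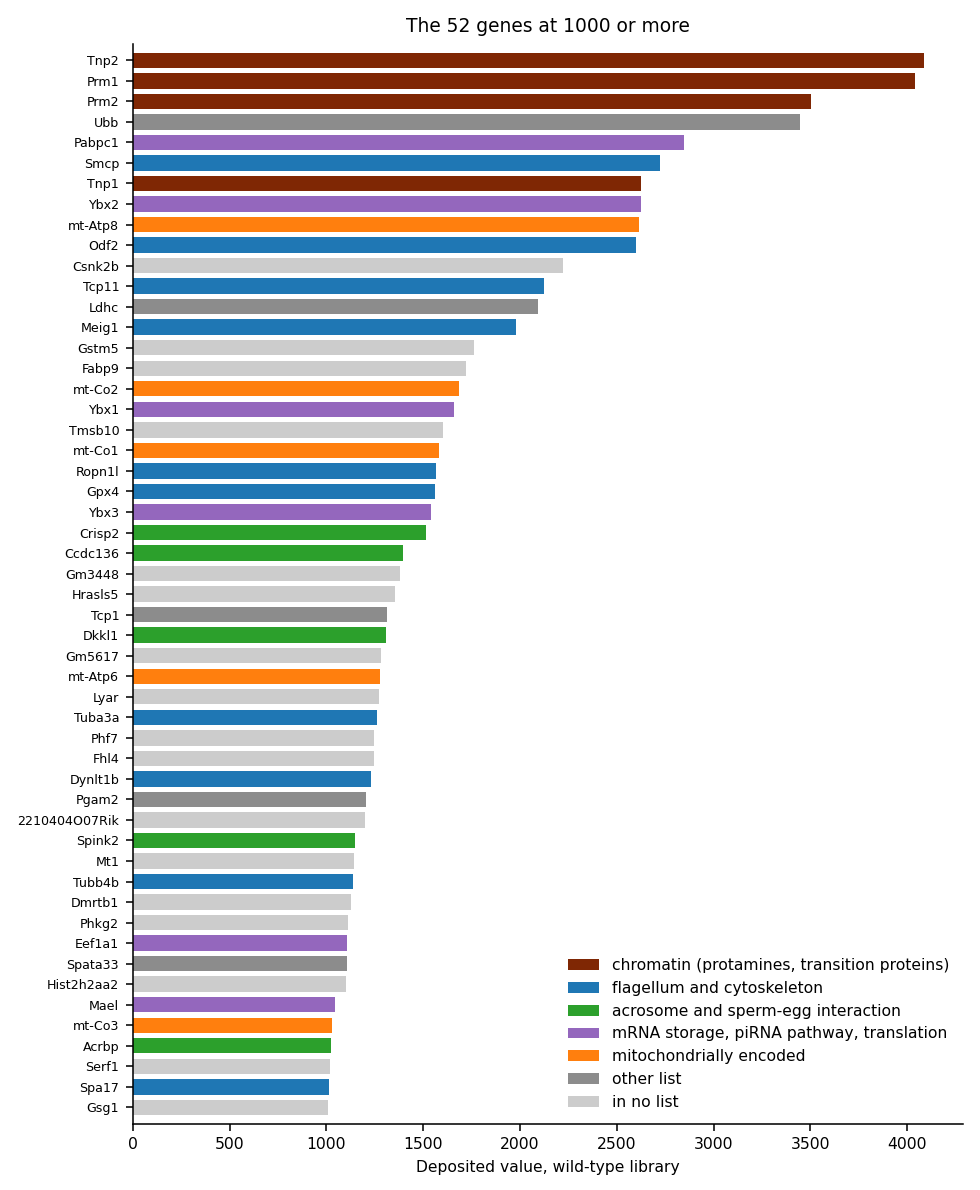
Deposited value in the wild-type round spermatid library of the 52 genes at 1000 or more, coloured by function group. Tnp2, Prm1 and Prm2 lead at 4085, 4043 and 3503, and the lowest of the 52, Gsg1, is at 1010.0.

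Chromatin genes led this highest range. Tnp2 (ENSMUSG00000043050.7), Prm2 (ENSMUSG00000038015.5) and Prm1 (ENSMUSG00000022501.5) lie side by side on the minus strand of chromosome 16 in GENCODE M21 (GRCm38), at 10787936 to 10788660, 10791380 to 10796134 and 10796326 to 10805839. Prm3, between Tnp2 and Prm2 at 10790505 to 10790914, was far lower at 376. The neighbouring Socs1, an inhibitor of cytokine signalling, was at 2.10, and the pseudogene Gm10343, on the opposite strand within the annotated span of Prm1, was at 6.12. Tnp1 lies apart on chromosome 1, at 73015074 to 73015909 on the minus strand, where its exons overlap 1700027A15Rik on the opposite strand. Whether the libraries keep strand is not given in the sources used here, so reads of such overlapping genes cannot be told apart.

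The upstream sequence of the highest chromatin genes and of Smcp is shown because these genes head the ranking. Each line gives 120 bases, 5′ to 3′ on the gene's strand, ending at the base before the RefSeq transcript start (GRCm38.p6). The positions, all on the minus strand, are chr16:10788656-10788775 for Tnp2, chr16:10796824-10796943 for Prm1, chr16:10792106-10792225 for Prm2, chr1:73015900-73016019 for Tnp1 and chr3:92589074-92589193 for Smcp. Capitals mark the letters TATA between 40 and 20 bases before the start, TATAAA, the GC box letters GGGCGG, and TGACTTCA, each on either strand.
Tnp2: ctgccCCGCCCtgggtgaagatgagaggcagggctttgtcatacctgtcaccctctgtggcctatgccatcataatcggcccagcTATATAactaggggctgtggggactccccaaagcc
Prm1: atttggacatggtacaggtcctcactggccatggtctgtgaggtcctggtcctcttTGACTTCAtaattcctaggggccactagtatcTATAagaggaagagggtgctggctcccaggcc
Prm2: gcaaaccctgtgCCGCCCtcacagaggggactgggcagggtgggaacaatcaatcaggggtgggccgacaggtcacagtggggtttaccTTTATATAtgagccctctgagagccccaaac
Tnp1: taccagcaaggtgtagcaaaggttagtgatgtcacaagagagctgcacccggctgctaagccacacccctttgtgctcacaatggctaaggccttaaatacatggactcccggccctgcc
Smcp: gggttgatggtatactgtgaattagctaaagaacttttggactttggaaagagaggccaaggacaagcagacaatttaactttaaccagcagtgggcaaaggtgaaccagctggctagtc

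Positions are counted in bases before the transcript start. In Tnp2 the letters TATA began at 35 and again at 33 bases, and a GC box was found at 115. In Prm1 TATA began at 32 bases and TGACTTCA at 64. In Prm2 TATA began at 29 and 27 bases, TATAAA on the opposite strand at 31, and a GC box at 108. The 120 bases shown for Tnp1 and Smcp held no marked stretch. The Smcp line does hold the letters TATA near its 5′ end, outside the interval in which TATA was marked. A match is a description of letters and not a site, and the lack of one says nothing about the factor.

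The same letters were counted in windows from 250 bases before to 50 bases after the start, for the 8998 coding genes with 1 RefSeq window. The letters TATA and TGACTTCA were picked from the sequences of Tnp2, Prm1 and Prm2. At 1000 or more, TATA at 40 to 20 bases before the start was found in 3 of 27 genes, which were these 3, and in 0 of the other 24. TGACTTCA was found in Prm1 and in 0 of the other 24. No share is therefore read for the highest range. TATA was found in 3.54% of genes from 100 to 1000, in 2.15% from 10 to 100, in 3.17% from 1 to 10 and in 6.47% under 1, against 3.91% of all, and TGACTTCA in 1.19% of all.

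GC box letters were found in 21 of the 27 highest genes (77.8%), in 50.9% of genes from 100 to 1000, in 63.0% from 10 to 100, in 61.8% from 1 to 10 and in 54.9% under 1, so the share had no steady order with abundance. The letters TGACGT, of the cyclic AMP response element bound by CREM-family factors, were in 4 of the 27 (14.8%), 10.5%, 15.3%, 10.9% and 7.0% of the same ranges. The full TGACGTCA was in 0 of the 27 and in 3.54%, 4.11%, 2.72% and 2.13% of the lower ranges. CCAAT was in 29.6% of the highest range and 39.1% of all. The highest range is small, and these shares are a description.

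Below the chromatin genes, the highest range held proteins of the sperm tail and its energy supply. Tcp11, a t-complex testis gene, was at 2125, and Meig1, which takes part in transport along the manchette, the microtubule skirt of the spermatid nucleus, was at 1981. Ropn1l, a ropporin of the fibrous sheath, was at 1568 and Spa17, which shares its anchoring domain, at 1011. The tubulins Tuba3a and Tubb4b were at 1264 and 1137, and the dynein light chain Dynlt1b at 1229. The selenoenzyme Gpx4, a structural part of the mitochondrial capsule, was at 1559.

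RNA-binding proteins formed another group there. Pabpc1 at 2849 and Ybx2 at 2623 were followed by the related Y-box proteins Ybx1 at 1659 and Ybx3 at 1539. Mael, a piRNA pathway protein, was at 1044 and the elongation factor Eef1a1 at 1105. Of acrosome genes, Crisp2, a cysteine-rich secretory protein, was at 1517, Ccdc136 at 1397 and Dkkl1 at 1310.0. The protease inhibitor Spink2 was at 1146 and Acrbp, the proacrosin-binding protein, at 1024.

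The rest of the 30 highest genes had mixed roles. Csnk2b, the regulatory subunit of casein kinase II, was at 2222, the glutathione transferase Gstm5 at 1763 and the fatty acid-binding protein Fabp9 at 1719. The actin-binding thymosin Tmsb10 was at 1602, the acyltransferase Hrasls5 at 1354 and the chaperonin subunit Tcp1 at 1312. Gm3448 at 1382 and Gm5617 at 1282 have predicted names only. Of the mitochondrially encoded mRNAs, mt-Co2 was at 1687 and mt-Co1 at 1583.

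Some of these values are uncertain in how reads were divided. Near-identical transcripts of another gene, at 98% identity or more over at least 50% of the length, were found for 10 of the 52 genes, such as Dynlt1b, whose copies Dynlt1a and Dynlt1f were at 717 and 638. The histone gene Hist2h2aa2, at 1100, also has such copies. Exons of 16 of the 52 overlapped a gene on the opposite strand, among them Odf2, Csnk2b and Tcp1. Over all genes that share was 30.7%, close to the 30.8% of the highest range. The only gene of the 52 with a median transcript under 400 nt was mt-Atp8, at 204 nt, where a per-length value is uncertain.

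The range from 100 to 1000 held 1499 genes, 8.35% of all genes, but 56.3% of the total. Its members had a median of 186, about 2070 fragments per gene and a counting error of 2.2%. It began with the testis small heat shock protein Hspb9 at 997, just under Gsg1. Next came Dbil5, a testis relative of the acyl-CoA-binding protein, at 997, the RNA helicase Ddx5 at 991, Cmtm2a at 968 and the phosphatase Pgp at 960. At its lower end Ccdc13 was at 100 and Dgka, a diacylglycerol kinase, just outside at 99.99.

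Several lists of sperm structure had most of their members here. Of 13 outer dense fibre and capsule genes, 3 were at 1000 or more, 8 from 100 to 1000 and 2 lower, with a list median of 337 against 3.73 over all genes. Odf1 was at 849. Oaz3, the haploid antizyme that binds ornithine decarboxylase, was at 838. All 5 tektins, filament proteins of the axoneme, lay here, with Tekt2 at 582 and Tekt4 at 518. Of 17 fibrous sheath and protein kinase A anchoring genes, 3 lay above, 9 within and 5 below it. Of 16 radial spoke and central apparatus genes, 11 lay in it, with Rsph1 at 850.

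Other membrane and signalling genes of sperm had a similar place. Of 11 genes of the CatSper calcium channel, 6 were from 100 to 1000 and 5 from 10 to 100, with Tex40 at 556 and Efcab9 at 291. The 6 measured testis-specific serine kinases had a median of 155, and Tssk2 and Tssk1 were at 343 and 301. Of 45 acrosome and sperm-egg genes, 5 lay above, 28 within and 12 below this range, with a median of 152. Of 19 actin-like and capping genes, 12 lay in it, with Actl7b at 837 and Actg1 at 624. Actl7b overlaps Gm26657, at 861, on the opposite strand, so how reads were divided between these genes is uncertain. The manchette and nuclear envelope list had 9 of 22 here and a median of 96.8, and Lrrc34 was at 365.

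Transcription regulators of haploid cells lay mainly between 100 and 1000. Of 22, 14 were there and 8 between 10 and 100, with none higher or lower. Spz1, a basic helix-loop-helix factor, was at 669, and Gtf2a1l, the germ cell form of a general transcription factor subunit, was at 417. Their median was 171. Chromatin genes outside the protamines varied more. Of 15 testis and replacement histones, 6 were in this range, led by the linker histone H1fnt at 396 and the replacement histone H3f3a at 375. Another 6 were under 10, where 33.7% of all genes lay from 1 to 10 and 30.8% under 1.

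**Figure D3:**
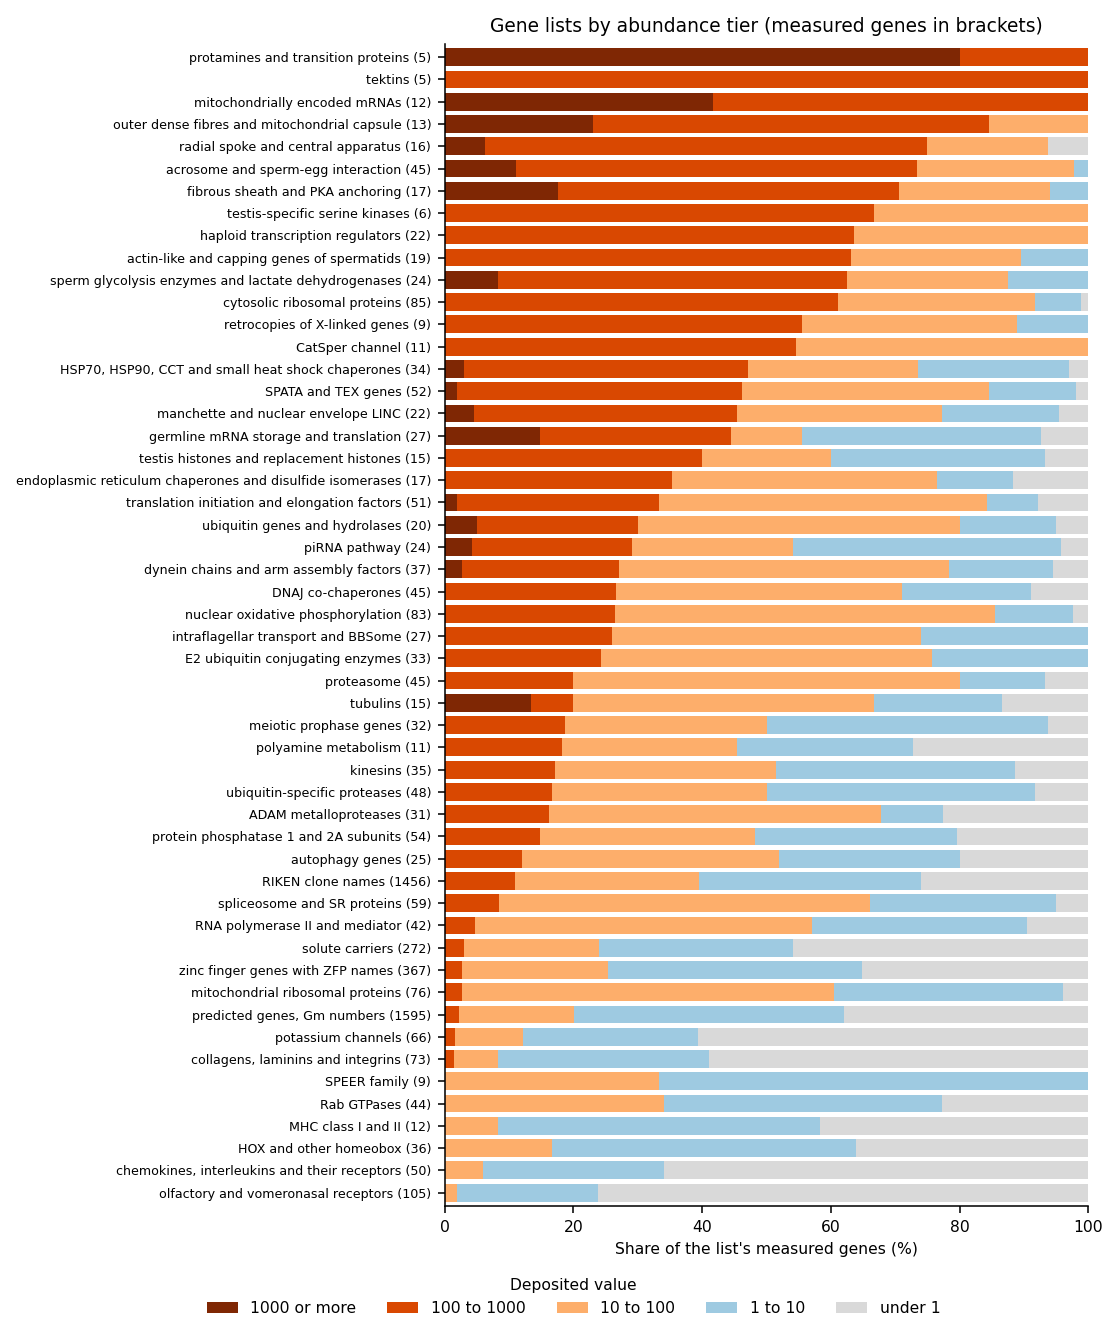
Share of the measured members of each gene list that fall in each range of the deposited value in the wild-type round spermatid library, with the number of measured genes in brackets. Protamine, capsule and tektin genes lie to the high end, and receptor and potassium channel families to the low end.

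Energy genes were high, with a mixed pattern inside each pathway. Of 24 glycolysis genes, 2 were at 1000 or more and 13 from 100 to 1000, with a median of 236. Ldhc was at 2094 and the phosphoglycerate mutase Pgam2 at 1205. All 12 measured mitochondrially encoded mRNAs were at 100 or more, with a median of 348 and 1.5% of the total. Any such gene without a value was not analysed here. Of 83 nuclear genes of oxidative phosphorylation, 22 lay from 100 to 1000 and 49 from 10 to 100, with Cox6b2 at 626 and Cox8c at 517, both cytochrome oxidase subunits with a testis form.

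Genes for making and breaking down protein formed a broad second group. Of 85 cytosolic ribosomal protein genes, none reached 1000, 52 lay from 100 to 1000 and 26 from 10 to 100, with 2.29% of the total. Rps24, of the small ribosomal subunit, was at 785. Among 51 translation factors, Eef1a1 at 1105 and Eef2 at 876 led. Of 20 ubiquitin genes and hydrolases, Ubb at 3447 alone reached 1000. Of 45 proteasome genes, 9 lay from 100 to 1000 and 27 from 10 to 100, with Psmc3 at 629 and Psmf1 at 360. The conjugating enzyme Ube2s was at 754 and Ube2d2b at 473, among 33 such enzymes with a median of 36.8.

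Chaperones showed the same spread. Of 34 genes of the heat shock and chaperonin families, Tcp1 at 1312 reached 1000, and 15 lay from 100 to 1000, with Hspb9 at 997. Dnajb3 at 744 and Dnajc15 at 406 led 45 co-chaperones, and Clgn, the testis relative of calnexin, at 507 and Calr at 298 led the endoplasmic reticulum list. The storage list for germline mRNA was split: of 27 genes, 4 were at 1000 or more, 8 from 100 to 1000 and 12 under 10, with a median of 35.1. The piRNA list behaved likewise, with Mael at 1044 but 11 of 24 under 10. Adad1, next in that list at 336, is also counted in the storage list and is not read here as a piRNA pathway gene. Over all genes, 33.7% lay from 1 to 10 and 30.8% under 1.

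The range from 10 to 100 held 4820 genes, 26.9% of all and 26.1% of the total. Its median was 27.2, from about 345 fragments per gene, with a counting error of 5.38%. Just under Dgka came the RNA-binding protein Sltm at 99.91, Morn4 at 99.88, the nucleotidase Entpd4 at 99.74 and the dynein assembly factor Dnaaf3 at 99.68. Its lower edge lay between Tmem86b at 10 and the splicing regulator Rbm10 at 9.99.

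Many genes of general cell machinery stood in this range, which held 26.9% of all genes. Of 59 spliceosome and SR protein genes, 34 were in it and 5 above, with Lsm2 at 305 and Snrpc at 181. Of 76 mitochondrial ribosomal proteins, 44 were in it and 2 above, namely Mrpl54 at 163 and Mrpl51 at 123. Of 42 RNA polymerase II and mediator genes, 22 were in it, with Med28 at 144 and Med10 at 113 above. The dynein and intraflagellar transport lists had more members here than above, unlike the tektins and the radial spoke genes. Of 37 dynein genes, 19 were in it and 9 from 100 to 1000. Of 27 genes of intraflagellar transport and the BBSome, 13 were in it and 7 from 100 to 1000. Ift74 at 170 and Ift81 at 163 led the intraflagellar transport list. Of 31 ADAM proteases, 16 were in it, while Adam3 and Adam5, which encode sperm surface proteins, were at 789 and 621.

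The range from 1 to 10 held 6047 genes, 33.7% of all, and 3.64% of the total. Its median was 3.17, from about 42.5 fragments per gene, with a counting error of 15.3%. Its highest informative names, all at 9.97 or more, were Rbm10, the snRNA transcription subunit Snapc3, Wbp1, the piRNA pathway protein Asz1 and Spryd7. The range ended at Gm8652 at 1.0, with the homeobox gene Vax1 next at 0.99. It held 14 of 32 meiotic prophase genes, while 16 were at 10 or more and 2 under 1. The median of the 32 was 8.98, against 3.73 over all genes, with the testis HSP70 gene Hspa2 at 958 and Syce1 at 355. Of 367 zinc finger genes with ZFP names, 145 were in it and 129 under 1, and Zfp451 and Zfp574 led at 197 and 166. Of 44 Rab GTPases, 19 were in it and none reached 100.

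Another 5528 genes, 30.8% of all, lay under 1 and held 0.315% of the total. A value there rested on about 4.79 fragments at the median, with a counting error of 45.7%, so that levels under 1 are loosely known. Large families of receptors, potassium channels and carriers had many members there. Of 105 olfactory and vomeronasal receptors, 80 were under 1, and Olfr112 and Olfr701 were highest at 23.6 and 19.1. Of 272 solute carriers, 125 were under 1, with Slc25a39 at 488 and the fructose carrier Slc2a5 at 426 at the other end. Of 73 collagens, laminins and integrins, 43 were under 1, and Col22a1 at 340 stood apart from Col16a1 at 42.9. Of 66 potassium channels, 40 were under 1, and Kcne3 at 114 was highest. Of 50 chemokines, interleukins and receptors, 33 were under 1, with Il31 at 37.3 first.

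By gene type, protein-coding genes made up 15497 of the 17946 genes and 96.4% of the total, with a median of 4.33. Antisense genes came next by share, with 571 genes and 1.26%. The 732 lincRNA genes held 0.814%, the 765 pseudogenes 0.813% and the 341 processed transcripts 0.593%. Their medians were 3.16, 1.35, 1.32 and 2.04. Noncoding genes at 100 or more were few: 19 antisense, 8 pseudogenes, 7 processed transcripts, 4 lincRNAs and 1 other.

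The highest noncoding RNAs had clone or predicted names. The antisense gene Gm11837 was at 574, AI507597 at 291 and 4930403D09Rik at 234. The processed transcript Gm15517, 251 nt long, was at 646, followed by 1700030C12Rik at 257 and 1700051A21Rik at 180. Gm15517 is too short for a fragment estimate, so its per-length value is uncertain, and its exons overlap Gm28496 on the same strand. The lincRNA 1700001L05Rik was at 234, D830044I16Rik at 222 and 1700023L04Rik at 181. Among pseudogenes, 1700049L16Rik was at 297, Gm1848 at 208 and Mospd4 at 177. Exons of Gm11837, AI507597, 4930403D09Rik and D830044I16Rik overlapped those of Necab1, Tmem82, Dock2 and Cdipt on the opposite strand, and 1700030C12Rik and 1700051A21Rik had such overlaps too. Genes with RIKEN clone names, coding or not, numbered 1456 and held 8.61% of the total. Gm-numbered genes, 1595 of them, held 3.34%.

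Transcript length, which enters the deposited value by its normalisation, differed between the ranges. Each gene's length was taken as the median over all its GENCODE transcripts. It can fall below the coding length, as for Eef2, at 651 against 2574 nt. The lengths of the messages present were not measured. Median transcript length was 777.5 nt at 1000 or more, 1007 nt from 100 to 1000, 1191 nt from 10 to 100, 1354.5 nt from 1 to 10 and 1819 nt under 1, against 1403 nt for all genes. Coding length followed the same order, from 638.25 to 1158 nt. Single-exon genes made up 13.5% of the coding genes of the highest range, 7 genes, of which 5 were mitochondrial, and 4.11% of all coding genes. With values multiplied by this annotated transcript length, as an estimate of fragments, Odf2 was first with 0.674%. Akap12, 104th by value, was second with 0.484%.

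Few X-linked genes stood high. Of 588 X-linked coding genes, 24.0% were at 10 or more and 1.53%, or 9 genes, at 100 or more, with none at 1000. On the autosomes 38.9% of 14693 were at 10 or more and 10.1% at 100 or more. The lowest autosome had 7.07% of its coding genes at 100 or more and the highest 13.3%, so the X chromosome lay outside the autosomal range. X-linked coding genes had a median of 1.64 against 4.55. The highest were Akap4, the main fibrous sheath protein, at 581 and Tsga8 at 306. Of 41 Y-linked coding genes, 4 were at 10 or more, with Eif2s3y at 38.4.

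**Figure D4:**
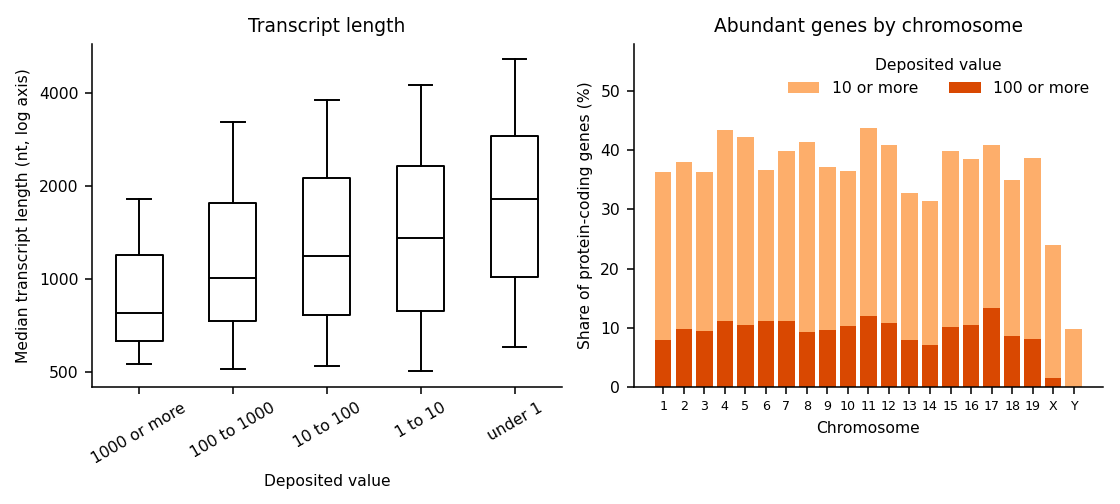
Left, median length of each gene's annotated transcripts (nt, log axis) by range of the deposited value. Boxes give the median and quartiles, with whiskers at the 5 and 95 percentiles. Right, share of protein-coding genes at 10 or more and at 100 or more by chromosome; median length rises from 777.5 nt at 1000 or more to 1819 nt under 1, and the X chromosome has 24.0% and 1.53%.

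Autosomal retrocopies of X-linked genes mostly outranked their parents. Gk2, a glycerol kinase, was at 414 and its parent Gyk at 0.31. Pgk2, the testis phosphoglycerate kinase, was at 401 against 1.17 for Pgk1, a ratio of 342. Cetn1 was at 290 against 2.42 for the centrin gene Cetn2. Rpl10l was at 248 against 2.06 for Rpl10. Smaller ratios were found for Rbmxl2, at 63.1 against 3.43 for Rbmx, and for Utp14b, at 15.3 against 2.67 for Utp14a. Cstf2t went the other way, at 4.08 against 50.01 for Cstf2. Rpl39l was at 151 and Pdha2 at 55.2, and their parents were not analysed here.

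Other pairs, of a form taken here as the germ cell form and a related gene, showed the same contrast. The label does not mean that a form, such as Pgam2, is confined to germ cells. Other tissues were not measured. Of 20 pairs with both members measured, 19 had the germ cell form higher, 13 of them by at least 10 times. The pairs were picked after most of these values had been seen, and the count depends on the partner chosen: Capza3, at 128, was paired with Capza2 at 4.08, while another form, Capza1, was at 109. Cox7b2 was at 156 against 0.32 for Cox7b, a ratio of 487, and Pgam2 was 413 times Pgam1. The ratio was 53.3 for Gapdhs over Gapdh, at 901 against 16.9, but 2.83 for Ldhc over Ldha, since Ldha itself was at 741. The exception was calreticulin, with Calr3 at 41.3 and Calr at 298.

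**Figure D5:**
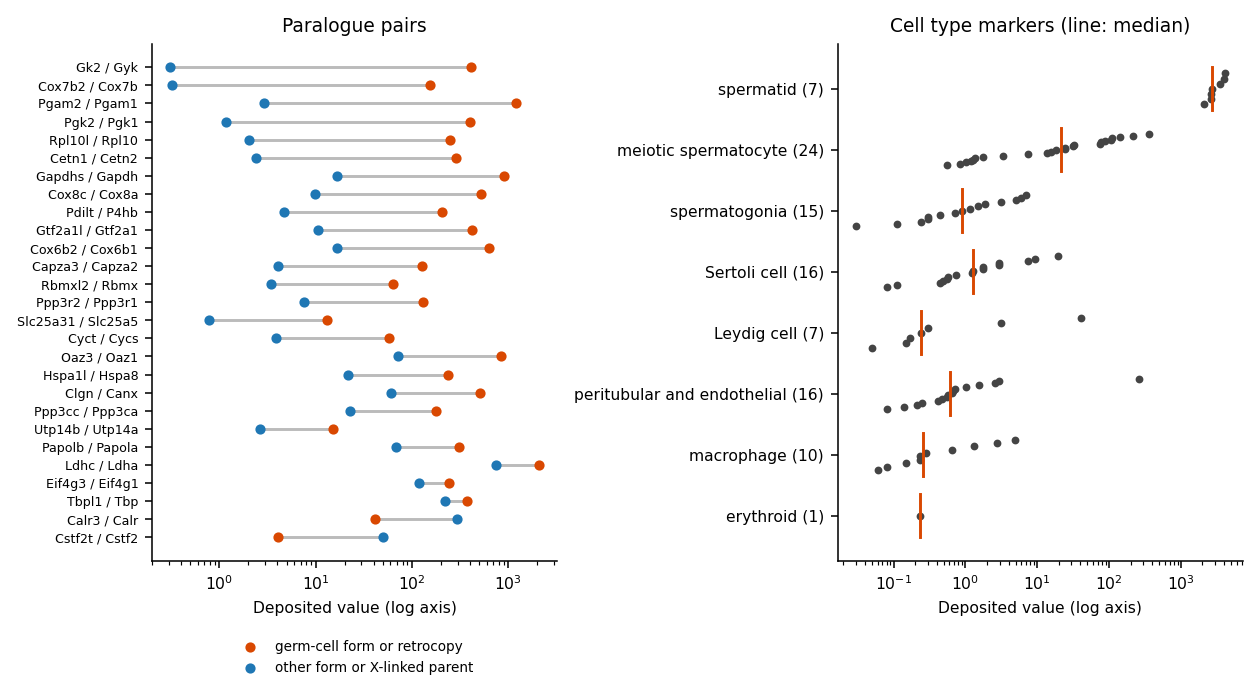
Deposited values (log axes) in the wild-type round spermatid library. Left, retrocopies and forms taken as germ cell forms, against the X-linked parent or other form. The retrocopy or germ cell form is higher in all pairs shown but Calr3 and Cstf2t. Right, each measured member of the cell marker lists with a line at the list median. The medians run from 2720 for spermatid markers to 0.23 for the erythroid marker.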

How the data were processed

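One library of round spermatid mRNA was analysed, with 1 column of the table of the whole series. The deposited values are a signal normalised to transcript length and library size by the authors; whether they are FPKM or TPM is not known. The tools listed, per the submitters' processing notes, are RSEM, STAR and Trim Galore 0.5.0, and the build is mm10 (GRCm38); the sources used here give no settings or annotation. Values of the table start at 0.01, so a gene at 0 was not analysed here. For 40 symbols with more than 1 gene, the higher entry was used in gene lists.

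Genes were ranked and summed in Python 3.11.15 with pandas 2.3.3 and numpy 2.4.6, and plotted with matplotlib 3.10.9. GENCODE M21 supplied positions, lengths and exons for 17673 genes (98.5%), matched on identifier. The fragment step was searched over 286 low values among 547 single-transcript genes of at least 2500 nt, with 350 nt subtracted from the length. The mean distance from whole steps was 0.13, against 0.25 without steps. Tested on simulated data with steps of 0.065, 0.08 and 0.1, the search returned the same steps. Near-identical copies were sought with BLAST+ 2.17.0. RefSeq promoter windows (GRCm38.p6) were matched by symbol. Protein sequences were not analysed here.

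Genes named are the 30 highest, the markers, the highest 2 of each list, the first informative names of each range, the genes at each limit, the 3 highest of each noncoding type and the retrocopies with their parents. One gene named by these criteria is not reported here. Others, including the paired forms, the neighbours on chromosome 16 and members quoted at the other end of a list, were chosen after their values were seen. TATA and TGACTTCA were chosen after the sequences were seen. The members, lists and ranges were chosen with earlier results of these data known, and family name patterns were tightened after the data were seen. No test was run, since wild type has 1 library. Alternatives left out mitochondrial, short, noncoding or low genes, weighted by length, or rescaled the values.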

Additional observations from a re-analysis of the deposited data

How the results depend on the processing

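The shares moved little in size. The top 10 share of 4.80% became 4.19% with values weighted by transcript length, 4.98% among coding genes and 4.82% among genes at 1 or more. The top 100 share of 20.1% became 19.6% without mitochondrial genes, 18.6% by length, 20.8% among coding genes and 20.12% at 1 or more. The top 1000 share of 59.45% became 59.1% without mitochondrial genes, 59.7% without transcripts under 400 nt, 59.53% by length, 61.3% among coding genes and 59.6% at 1 or more. The coding share of 96.44% became 96.4%, 96.8%, 97.5% and 96.49% without mitochondrial genes, without short transcripts, by length and at 1 or more. Rescaling the values by a factor of 1.543, to the sum that TPM would have, raised genes at 1000 or more from 52 to 112, since the limits of the ranges depend on the unit. The other 26 recomputed values stayed within their counting interval or within 1.5 times their count. No paired analysis was possible because wild type has 1 library and no genotypes were compared. Shares were set against a 95% interval for counting error only, which leaves out differences between animals, sorts and library preparations. Genes listed at 0 were not analysed here, and levels under 1 rest on few fragments.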

Other observations

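Several further families stood at middle levels. Of 52 genes with SPATA or TEX names, which mark spermatogenesis-associated and testis-expressed genes, 1 was at 1000 or more, 23 from 100 to 1000 and 20 from 10 to 100, with Spata33 at 1105 and Spata6 at 954. The protein phosphatase subunits were led by Ppp1cc, the catalytic subunit with a testis isoform, at 847 and its inhibitor Ppp1r11 at 699, although the median of 54 such genes was 8.29. Of 48 ubiquitin-specific proteases, 8 were from 100 to 1000, with Usp2 at 436 and Usp1 at 288. Kif2b at 565 and Kif17 at 238 led 35 kinesins, and Gabarap at 307 and Atg9a at 192 led 25 autophagy genes. The polyamine list was led by Oaz3 at 838 and ornithine decarboxylase (Odc1) at 208, and 6 of its 11 genes were under 10. Over all genes, 33.7% lay from 1 to 10 and 30.8% under 1, so low members are common in general. Of 9 SPEER genes, 3 lay from 10 to 100, a range that held 26.9% of all genes, and none higher. Speer2 was at 62.4 and Speer4b at 24.5, and the list median was 8.02 against 3.73 over all genes.

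Homeobox and histocompatibility genes had medians of 1.54 and 2.33, against 3.73 over all genes. Over all genes, 33.7% lay from 1 to 10 and 30.8% under 1. Of 36 homeobox genes, 6 reached 10, with Nkx2-6 at 71.7 and Hoxd8 at 64.7. Of 12 genes of the major histocompatibility complex list, H2-DMa alone reached 10, at 13.9, and H2-K1 was at 7.84. The mitochondrial rRNAs mt-Rnr1 and mt-Rnr2, in a library prepared with an mRNA kit, were at 46.7 and 37.2. Every one of the 12 measured mitochondrially encoded mRNAs was higher, and the lowest of them, mt-Nd6, was at 129.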
